A study of Equus caballus with 45 samples.

Results

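The 9 genes described here regulate interferon and cytokine signaling. They are the interferon regulatory factor genes IRF1, IRF2, IRF7, IRF8 and IRF9, the transcription factor genes STAT2 and STAT3, and the suppressor of cytokine signaling genes SOCS1 and SOCS3. They were picked out by their symbols, as 9 of the 20881 genes listed in each of 2 count tables of equine cells, and all 9 were present in both tables.

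A type I interferon that binds its receptor activates JAK kinases, which phosphorylate STAT proteins. STAT2 and IRF9 are parts of the complex ISGF3, which binds the promoters of interferon-stimulated genes. IRF7 is itself such a gene, and its product drives further transcription of interferon genes. IRF1 activates many of the same promoters, IRF2 can compete with it for the same sites, and IRF8 acts mainly in myeloid and lymphoid cells. STAT3 carries the signals of IL-6 family cytokines and IL-10. SOCS1 and SOCS3 close the loop, since STAT proteins induce them and their products inhibit JAK kinases and receptors.

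Mesenchymal stromal cells (MSC) from the sternal bone marrow of 3 horses aged 3 to 4 years (donor labels PC, 99 and 92) were left untreated or were given the TLR3 agonist poly I:C, a mimic of double-stranded RNA, the STING agonist 2′3′-cGAMP, or a treatment labelled CpG. Each donor gave 1 library per condition. The agonists were applied for 2 h, at 10 μg/mL in the study's methods and at 10 ng/mL in the sample labels, and RNA was taken 24 h later. No dose is given for CpG in the sources used here. Synoviocytes, chondrocytes and monocyte-derived macrophages were each grown from 1 horse, so the replicates of a joint cell group share their cells and differ in the MSC donor of the medium. By the study's methods, these cells were given IL-1β and TNF-α together with conditioned medium (CM) for 24 h. Its abstract instead gives the cytokines for 2 h, a wash and then CM for 24 h. The cells were collected after a further 24 h in fresh medium. The labels give the cytokines at 20 ng/mL for synoviocytes and chondrocytes and at 10 ng/mL for macrophages, where the methods give 20 ng/mL. The CM came from resting MSC, from TLR3-activated MSC (TLR-MSC-CM) or from STING-activated MSC (STING-MSC-CM) of the donors PC, ORC and AG1. Whether ORC and AG1 are the donors labelled 99 and 92 is not given in the labels. Each cell type also had 1 library with the cytokines only and 1 with no addition, for which there are no replicates.

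Total counts ran from 23525704 to 54103873 over the 45 libraries. Levels are given as counts per 1000000 of these totals (CPM), and 3 counts, taken as the floor of detection, came to 0.0554 to 0.128 CPM; the floor covers counting error only. CPM are not scaled by gene length, so levels are compared between libraries and not between genes. The summed level of 10 macrophage markers was 10911 to 13854 CPM in the 11 macrophage libraries, at most 19.1 CPM in synoviocytes and 10.6 to 39.6 CPM in chondrocytes. The summed level of 7 cartilage markers was 40.8 to 321 CPM in chondrocytes, with COL9A1 at or under the floor, and 8.62 to 22.7 CPM in synoviocytes. In MSC it was 15.5 to 65.7 CPM, which overlaps the chondrocytes. With resting MSC-CM, ACAN, COMP and SOX9 were higher in chondrocytes than in synoviocytes. MATN3 was lower, at 0.0802 to 0.318 against 1.67 to 3.12 CPM. COL2A1 was at most 0.368 CPM in any chondrocyte library. The summed level of 4 T cell markers was 210 to 387 CPM in macrophages and at most 0.0717 CPM in any other library. That of the stromal markers was 24180 to 54369 CPM in MSC and higher in synoviocytes, at 68281.5 to 84409 CPM. In chondrocytes it was 42380 to 75472.5 CPM, which overlaps both. The synoviocyte marker PRG4 was not among the genes counted. The summed level of 5 other synoviocyte markers was 1121 to 1635 CPM in synoviocytes and 557 to 870 CPM in chondrocytes. Of these, VCAM1 was highest in synoviocytes, CDH11 was higher in chondrocytes and CLIC5 was highest in macrophages.

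With either agonist, the members that stood farthest from untreated MSC were IRF7, IRF9 and STAT2, in that order. IRF7 was measured at 5.24, 17.6 and 11.7 CPM in the untreated MSC of donors 92, 99 and PC. With the TLR3 agonist it was at 5.43, 490 and 854 CPM in the same order. With the STING agonist it was at 454, 2244 and 1355 CPM. All 3 STING libraries lay far above the untreated ones, whereas the TLR3 library of donor 92 lay within the untreated range. The fitted log2 fold change of IRF7 was 6.88 ± 1.61 (SE, n = 3 per group) for the STING agonist and 5.36 ± 1.5 for the TLR3 agonist. Neither passed edgeR's quasi-likelihood test after Benjamini-Hochberg adjustment over all 14872 genes tested (adjusted p = 1.00 for both, unadjusted p = 0.00234 and 0.00655). DESeq2, run as an alternative on the same counts, called IRF7 in both comparisons (adjusted p = 1.31e-06 and 0.00115). Neither fit had a donor term, although the libraries are paired by donor. With the donor as a replicate block, edgeR called no member with either agonist. DESeq2 with that block, chosen after seeing the data, called IRF7 in both (adjusted p = 2.32e-06 and 0.0290).

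IRF9, the DNA-binding subunit of ISGF3, was at 27.5, 27.2 and 20.6 CPM in untreated MSC of donors 92, 99 and PC. It was at 22.3, 199 and 211 CPM with the TLR3 agonist and at 173, 259 and 205 CPM with the STING agonist. Donor 92 again stayed near its untreated level with the TLR3 agonist and stood well above it with the STING agonist. The log2 fold change of IRF9 was 2.60 ± 0.70 for the TLR3 agonist and 3.07 ± 0.72 for the STING agonist (edgeR adjusted p = 1.00 for both, unadjusted p = 0.00547 and 0.00235; DESeq2 adjusted p = 0.0349 and 0.00176). Without the TLR3 library of donor 92, edgeR called IRF7 and IRF9 with the TLR3 agonist, at log2 fold changes of 5.92 and 3.09 (adjusted p = 0.0311 and 0.00590).

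STAT2, the partner of IRF9 in ISGF3, was at 22.6, 26.2 and 32.1 CPM in untreated MSC of donors 92, 99 and PC. With the TLR3 agonist it was at 28.9, 32.6 and 137 CPM, so that only the library of donor PC stood apart from the untreated ones by more than a few CPM. With the STING agonist it was at 72.5, 62.3 and 105 CPM, and no STING library overlapped the untreated range. The log2 fold change of STAT2 was 1.34 ± 0.56 and 1.55 ± 0.56, respectively (edgeR adjusted p = 1.00 for both, unadjusted p = 0.0421 and 0.0233). Without the TLR3 library of donor PC the former came to 0.26. IRF2, which can act as a repressor at interferon-responsive promoters, was at 20.8 to 26.4 CPM in untreated MSC and at 31.8 to 41.8 CPM with the STING agonist, again without overlap (log2 fold change 0.60 ± 0.22, edgeR adjusted p = 1.00, unadjusted p = 0.0248). With the TLR3 agonist IRF2 was at 23.2, 28.5 and 34.5 CPM in donors 92, 99 and PC, and the groups overlapped.

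**Figure D1:**
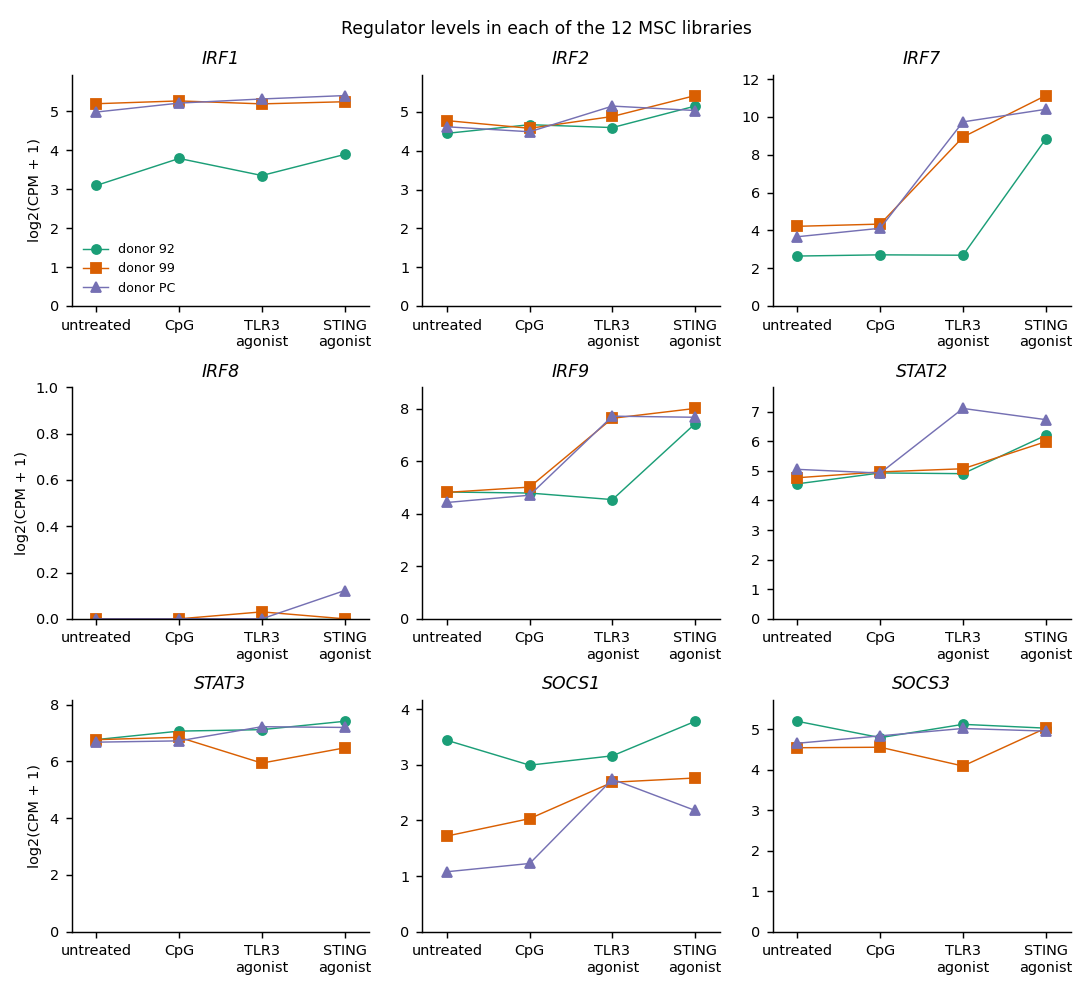
Level of each regulator, as log2(CPM + 1), in the 12 MSC libraries, with 1 point per library and lines that join the libraries of a donor (92 circles, 99 squares, PC triangles) across the conditions on the horizontal axis; the vertical scales differ. IRF7 and IRF9 of donor 92 were at 5.43 and 22.3 CPM with the TLR3 agonist and at 454 and 173 CPM with the STING agonist.

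Counted over the members, IRF8 had too few counts to be tested in MSC, and none of the other 8 passed edgeR's adjusted threshold with either agonist, nor did any gene (0% of 14872). With the TLR3 agonist, 3 of the 8 (IRF7, IRF9 and STAT2) were higher at an unadjusted p under 0.05, beside 1% of all genes in that direction, and none had groups without overlap, beside 0.867% of all genes. With the STING agonist, 4 of the 8 (IRF2, IRF7, IRF9 and STAT2) were higher at an unadjusted p under 0.05, beside 1.69% of all genes, and the same 4 had groups without overlap, beside 4.03%. By DESeq2, 2 of the 8 members were called in each comparison, beside 0.418% and 0.685% of the genes with an adjusted p. With the donor as a replicate block, IRF1 and SOCS1 joined these 4 with the STING agonist, beside 5.54% of all genes higher in that fit, with log2 fold changes of 0.44 ± 0.17 and 0.95 ± 0.41 (edgeR adjusted p = 0.447 and 0.521). In the same fit 4 of the 8 members passed at an unadjusted p under 0.05 with the TLR3 agonist, beside 2.36% of all genes higher and 0.841% lower. Without the block, none of the members was lower at an unadjusted p under 0.05 in either comparison. The share of all genes was 0.148% with the TLR3 agonist and 0.403% with the STING agonist. The exact two-sided permutation test of 3 libraries against 3 cannot go below p = 0.1, and it gave that value for each of the 4 members without overlap.

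The other 4 tested members, IRF1, STAT3, SOCS1 and SOCS3, had groups that overlapped the untreated one with either agonist. SOCS1, which inhibits JAK kinases, was at 9.87, 2.30 and 1.11 CPM in untreated MSC of donors 92, 99 and PC. It was at 7.96, 5.44 and 5.69 CPM with the TLR3 agonist and at 12.8, 5.79 and 3.53 CPM with the STING agonist. In donors 99 and PC each agonist library was thus above the untreated library of the same donor, while in donor 92 only the STING library was. IRF1 was at 7.55 CPM in untreated MSC of donor 92 and at 35.7 and 30.6 CPM in donors 99 and PC, and donor 92 stayed the lowest in every condition, with 13.9 CPM at most. STAT3 was at 107.9, 107.8 and 101 CPM in untreated MSC, at 138, 60.3 and 148 CPM with the TLR3 agonist and at 169, 88.0 and 146 CPM with the STING agonist in donors 92, 99 and PC. In donor 99 both STAT3 values were below the untreated level and in the other 2 donors both were above it. SOCS3, a feedback inhibitor of receptors of the IL-6 family, stayed between 16.0 and 35.6 CPM over all 12 MSC libraries. IRF8 had 3 counts in the STING library of donor PC, 1 in the TLR3 library of donor 99 and 0 in the other 10.

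The agonists were also compared with each other, and CpG with no treatment. Between STING and TLR3 agonist, no member passed at an unadjusted p under 0.05, beside 0.242% of all genes, and the log2 fold changes of the 8 members ran from 0.06 to 1.52. The largest single difference was that of IRF7 in donor 92, which was 83.7-fold higher with the STING than with the TLR3 agonist. The same ratio of IRF7 was 4.58 in donor 99 and 1.59 in donor PC. With CpG the log2 fold changes of the 8 members lay between −0.23 and 0.24, and none passed at an unadjusted p under 0.05, beside 0.305% of the 15099 genes tested. IRF7 with CpG was at 5.52, 19.1 and 16.3 CPM in donors 92, 99 and PC.

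**Figure D2:**
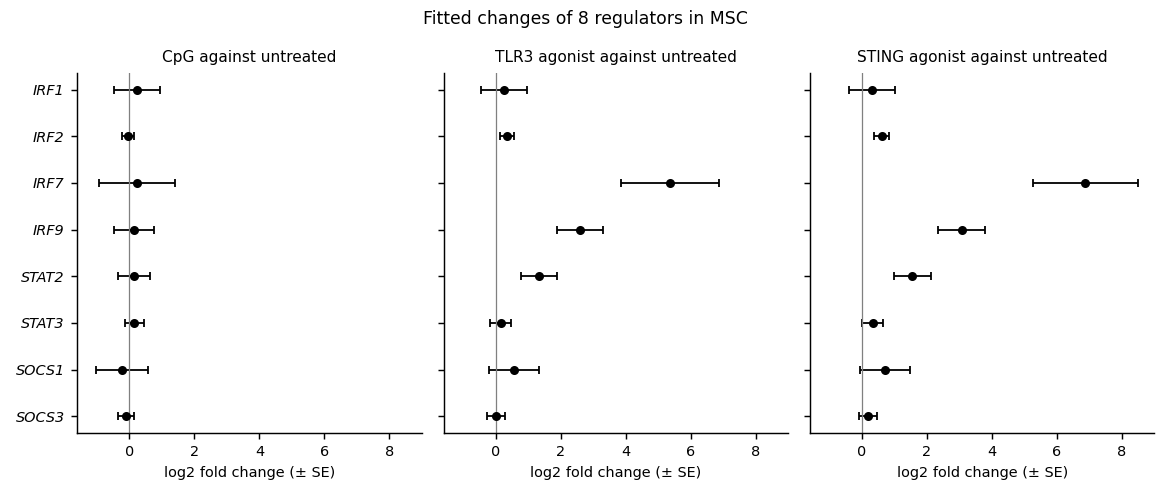
Fitted log2 fold change (horizontal axis, ± SE) of the 8 tested regulators against untreated MSC for CpG, the TLR3 agonist and the STING agonist, with n = 3 libraries per group and the grey line at no change. IRF7 was at 5.36 with the TLR3 agonist and 6.88 with the STING agonist, while with CpG the 8 values lay between −0.23 and 0.24.

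Among other genes of the pathway, the interferon-stimulated targets were also higher at the unadjusted threshold. The receptor, JAK kinase and ligand genes tested did not pass it, which with 3 libraries per group does not show that they were unchanged. Of 15 targets tested, 14 were higher at an unadjusted p under 0.05 with the TLR3 agonist and 15 with the STING agonist. The shares of all genes were 1% and 1.69%. The median log2 fold changes of the targets were 4.35 and 4.93, beside 0.02 and 0.01 over all genes tested. ISG15, a ubiquitin-like modifier, ran from 7.58 to 14.3 CPM in untreated MSC, from 9.55 to 1976 CPM with the TLR3 agonist and from 758 to 2321 CPM with the STING agonist. USP18, which removes ISG15 from proteins and restrains the interferon receptor, was the only one of 9 other inhibitors to pass at that threshold in each comparison. It ran from 0.261 to 3.00 CPM in untreated MSC, from 2.10 to 119 CPM with the TLR3 agonist and from 90.0 to 107 CPM with the STING agonist. None of 11 receptor genes, 4 JAK family kinases, 6 other IRF genes, 4 other STAT genes and 4 other SOCS genes tested, nor any of 5 ligand genes and 7 STAT3 target genes, passed at an unadjusted p under 0.05 with either agonist. The 10 macrophage markers summed to 12.6 to 16.1 CPM in untreated MSC, 10.8 to 138 CPM with the TLR3 agonist and 54.6 to 324 CPM with the STING agonist. Nearly all of this was CD68, at 53.3 to 324 CPM with the STING agonist, the only 1 of 8 such markers tested that was higher at that threshold. The other macrophage markers listed stayed at or below 0.665 CPM in every MSC library, and CD14 was the highest of them. The part of other cells in the CD68 values was not tested.

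In the joint cells the first question was whether the members differed between cell types under resting MSC-CM. All 9 were higher in macrophages than in synoviocytes and than in chondrocytes, and all 9 passed edgeR's test in both comparisons, beside 36.6% of the 15599 genes called higher in each. The replicates of a cell type share their cells, so the p-values between cell types rest on the spread between media and cultures, not between horses. In all such comparisons, cell type cannot be told apart from the culture used. By the labels, macrophages also had a lower cytokine dose than the other types, which cannot be told apart from cell type either. In such bulk libraries, fewer cells of a type and less RNA per cell cannot be told apart. IRF8 was at 351, 236 and 328 CPM in macrophages given medium of donors AG1, ORC and PC. In synoviocytes IRF8 had 2, 5 and 5 counts in the same order, or 0.0632 to 0.184 CPM, and in chondrocytes it had 0 counts in all 11 libraries. Against the highest floor of a chondrocyte library, 0.119 CPM, it was at least 1983-fold higher in each of the 3 macrophage libraries.

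IRF1 was at 562, 401 and 503 CPM in macrophages, at 8.78, 7.01 and 7.02 CPM in synoviocytes and at 9.89, 6.55 and 10.5 CPM in chondrocytes, in the order AG1, ORC and PC. The lowest macrophage library lay far above every library of the other types. The ratio of the mean CPM was 64.3 against synoviocytes and 54.5 against chondrocytes (log2 fold changes 5.97 ± 0.22 and 5.75 ± 0.22; edgeR adjusted p = 3.15e-09 and 3.43e-09). SOCS1, an inhibitor of the JAK kinases, was at 46.0, 30.0 and 33.8 CPM in macrophages and at or below 0.758 CPM in both other types. Its ratio was 65.5 and 98.5 (log2 fold changes 5.98 ± 0.26 and 6.58 ± 0.27).

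IRF7 had a wide spread within macrophages, at 175, 635 and 344 CPM with medium of AG1, ORC and PC. It was at 9.60, 9.07 and 7.26 CPM in synoviocytes and at 5.29, 2.94 and 3.62 CPM in chondrocytes. The ratio of means was 44.5 against synoviocytes and 97.5 against chondrocytes (log2 fold changes 5.45 ± 0.46 and 6.58 ± 0.48). The subunits of ISGF3 differed less: STAT2 was 6.06-fold and 5.73-fold higher in macrophages than in synoviocytes and chondrocytes, and IRF9 was 4.63-fold and 4.47-fold higher. IRF2 was 4.31-fold and 3.79-fold higher, SOCS3 was 2.44-fold and 1.71-fold higher, and STAT3 was 1.67-fold and 1.64-fold higher. STAT3 had the highest adjusted p of the 9 in each comparison (5.04e-04 and 5.48e-04, edgeR). The 4 T cell markers were at 221 to 257 CPM in the same 3 macrophage libraries and at or near 0 in the other cells, and their part in these differences was not tested.

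Between chondrocytes and synoviocytes with resting MSC-CM, SOCS3 was higher in chondrocytes and IRF8 was lower, beside 8.31% of all genes called higher and 9.84% called lower. SOCS3 was at 53.6, 47.8 and 48.5 CPM in chondrocytes and at 39.3, 33.05 and 32.6 CPM in synoviocytes, without overlap, beside 18.1% of all genes higher in that way (log2 fold change 0.50 ± 0.13, edgeR adjusted p = 0.0206). The call of IRF8 rests on the 2 to 5 counts per synoviocyte library (edgeR adjusted p = 0.0224). Both calls were lost without the chondrocyte library of AG1, the synoviocyte library of ORC or the synoviocyte library of PC, where the adjusted p of SOCS3 was 0.0830 to 0.0883 and that of IRF8 was 0.0580 to 0.0643. IRF7 was at 2.94 to 5.29 CPM in chondrocytes and at 7.26 to 9.60 CPM in synoviocytes, also without overlap, beside 18.9% of all genes lower in that way, with a log2 fold change of −1.13 ± 0.42 that missed the threshold (edgeR adjusted p = 0.0932; DESeq2 adjusted p = 0.0155).

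**Figure D3:**
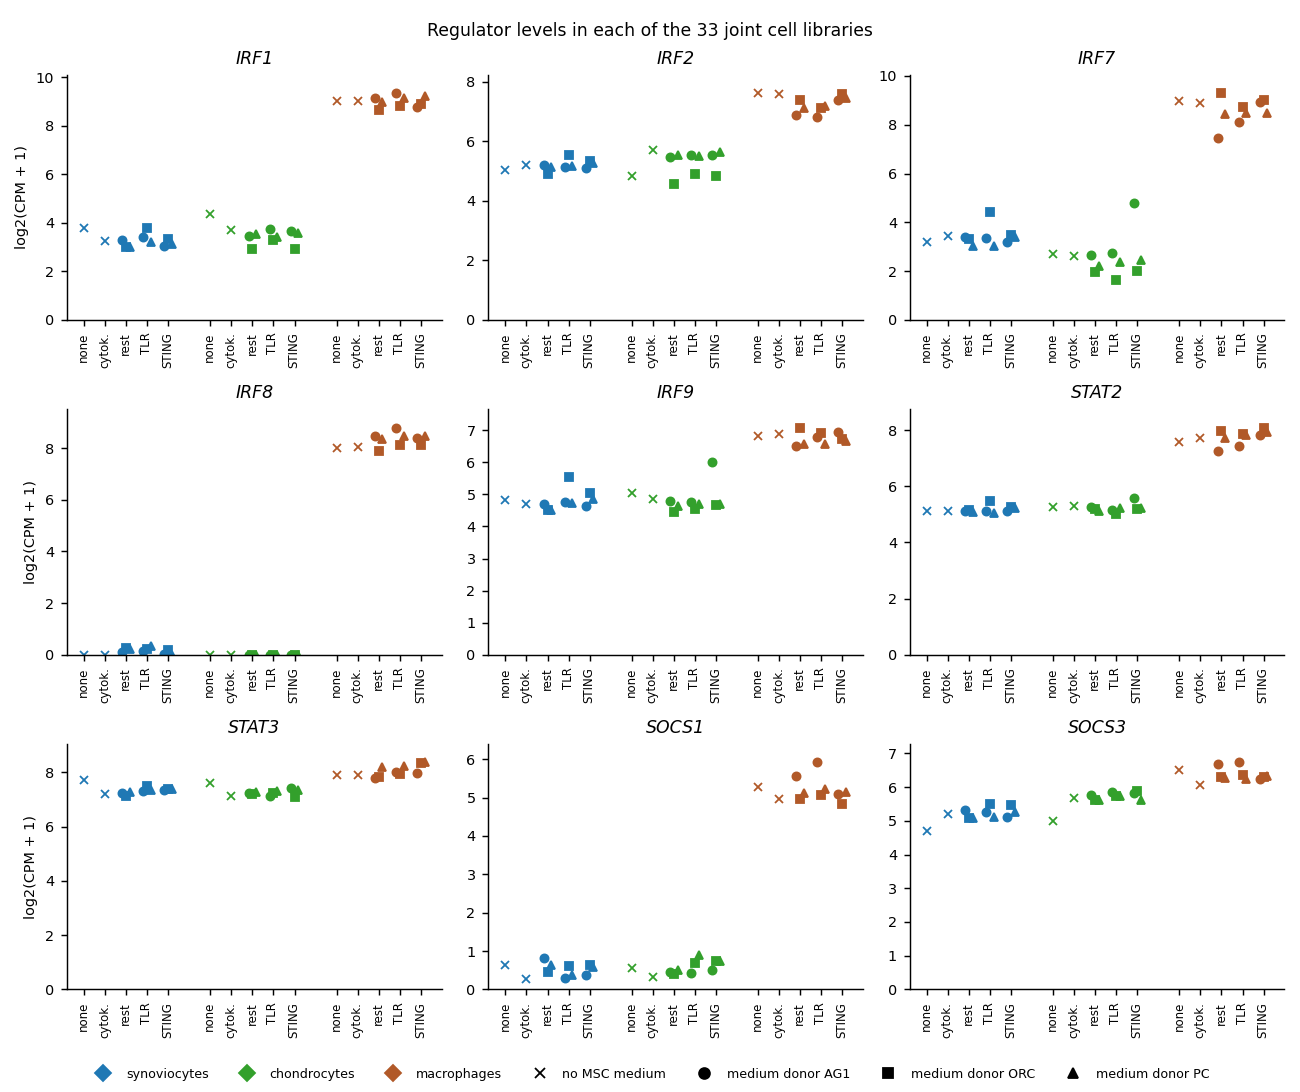
Level of each regulator, as log2(CPM + 1), in the 33 joint cell libraries, by cell type (color) and by condition on the horizontal axis: no addition, cytokines only (cytok.), and cytokines with CM of resting (rest), TLR3-activated (TLR) or STING-activated (STING) MSC; symbols give the medium donor and the vertical scales differ. All 9 genes are highest in macrophages, and with resting MSC-CM IRF1 was at 401 to 562 CPM there against 6.55 to 10.5 CPM in the other 2 types.

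In synoviocytes, the activated media were compared with resting MSC-CM of the same donors. With TLR-MSC-CM, 3 of the 9 members (IRF1, IRF9 and STAT3) were higher at an unadjusted p under 0.05, beside 4.94% of the 14584 genes tested, and 2 (IRF9 and STAT3) had groups without overlap, beside 6.25%. None passed after adjustment in edgeR or DESeq2. IRF9 was at 24.8, 22.0 and 21.8 CPM with resting MSC-CM of AG1, ORC and PC and at 26.2, 45.8 and 25.3 CPM with TLR-MSC-CM. The medium of donor ORC thus gave a value well above all others, and the other 2 media gave values slightly above their resting libraries. The log2 fold change of IRF9 was 0.49 ± 0.18 (edgeR adjusted p = 0.494, unadjusted p = 0.0163) and came to 0.18 without the ORC library.

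IRF7 showed the same single library, at 9.60, 9.07 and 7.26 CPM with resting MSC-CM and at 9.27, 20.4 and 7.25 CPM with TLR-MSC-CM of AG1, ORC and PC. IRF1 was at 7.01 to 8.78 CPM with resting MSC-CM and at 9.72, 12.9 and 8.34 CPM with TLR-MSC-CM (log2 fold change 0.42 ± 0.16, edgeR adjusted p = 0.494, unadjusted p = 0.0193; 0.25 without the ORC library). STAT3 was at 138 to 154 CPM with resting MSC-CM and at 158 to 178 CPM with TLR-MSC-CM (log2 fold change 0.16 ± 0.07, edgeR adjusted p = 0.496, unadjusted p = 0.0436). Of the 15 interferon-stimulated targets tested, 5 were higher at an unadjusted p under 0.05 with TLR-MSC-CM, beside 4.94% of all genes. The median log2 fold change of the 15 was 0.41, beside 0.00 over all genes tested.

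With STING-MSC-CM no member reached an unadjusted p under 0.05 in synoviocytes, beside 7.6% of all genes, and STAT3 alone had groups without overlap, beside 8.62% of genes higher in that way. STAT3 was at 160 to 165 CPM there (log2 fold change 0.13 ± 0.07, edgeR adjusted p = 0.634). Between STING-MSC-CM and TLR-MSC-CM, IRF1 and IRF8 were lower with STING-MSC-CM at an unadjusted p under 0.05, beside 1.01% of all genes, and neither passed after adjustment in edgeR or DESeq2. IRF1 was at 7.28, 9.17 and 7.78 CPM with STING-MSC-CM of AG1, ORC and PC (log2 fold change −0.36 ± 0.16, edgeR adjusted p = 1.00, unadjusted p = 0.0422; −0.18 without the TLR library of ORC). IRF8 had 1, 3 and 0 counts with STING-MSC-CM and 3, 4 and 12 counts with TLR-MSC-CM, so that its comparison rests on very few reads.

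In chondrocytes, none of the 8 members with enough counts passed at an unadjusted p under 0.05 with TLR-MSC-CM, beside 0.559% of the 14304 genes tested, or with STING-MSC-CM, beside 0.909%, and none passed after adjustment in edgeR or DESeq2. With STING-MSC-CM 1 library stood apart. IRF7 was at 5.29, 2.94 and 3.62 CPM with resting MSC-CM of AG1, ORC and PC and at 27.04, 3.01 and 4.44 CPM with STING-MSC-CM. All 3 media gave a value above the resting library of their donor, by 5.11-fold with medium of AG1 and by little with the other 2. The log2 fold change of IRF7 was 1.49 ± 0.73 (edgeR adjusted p = 1.00, unadjusted p = 0.0720), and without the STING library of AG1 it was −0.08.

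IRF9 was at 26.5, 20.7 and 24.0 CPM with resting MSC-CM and at 63.0, 24.4 and 25.0 CPM with STING-MSC-CM of AG1, ORC and PC (log2 fold change 0.62 ± 0.31, edgeR adjusted p = 1.00, unadjusted p = 0.0739; 0.06 without the AG1 library). STAT2 was at 46.4 CPM in the same STING library of AG1 and between 31.5 and 37.6 CPM in the other 8 replicated chondrocyte libraries. The macrophage markers summed to 39.6 CPM in that library and to 10.6 to 19.9 CPM in the other 10 chondrocyte libraries. Of the 39.6 CPM, CD68 made up 38.3 CPM. Over the STING-MSC-CM libraries, CD14 was at 0.632 to 1.81 CPM. CSF1R, AIF1, PTPRC, LAPTM5 and TYROBP were at or below 0.0743 CPM there, and CD163, SPI1 and MRC1 had no counts. The part of other cells in the library of AG1 was not tested. SOCS1 had groups without overlap, at 0.318 to 0.424 CPM with resting MSC-CM and 0.429 to 0.678 CPM with STING-MSC-CM, beside 2.47% of all genes higher in that way, on 8 to 18 counts per library (log2 fold change 0.64 ± 0.45, edgeR adjusted p = 1.00). Of the interferon-stimulated targets, 9 of 15 were higher at an unadjusted p under 0.05 with STING-MSC-CM, beside 0.65% of all genes. How far these targets rest on the AG1 library was not tested. Their median log2 fold change was 1.22, beside 0.00 over all genes tested. Between STING-MSC-CM and TLR-MSC-CM the log2 fold change was 1.49 ± 0.73 for IRF7 and 0.56 ± 0.31 for IRF9, and no member reached an unadjusted p under 0.05, beside 0.811% of all genes. With the medium donor as a replicate block, IRF7 and IRF9 were higher with STING-MSC-CM at that threshold in both comparisons, beside 2.4% of all genes against resting MSC-CM and 2.29% against TLR-MSC-CM. Against resting MSC-CM their log2 fold changes were then 1.16 ± 0.35 and 0.55 ± 0.18, and neither passed after adjustment (edgeR adjusted p = 1.00 for both).

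**Figure D4:**
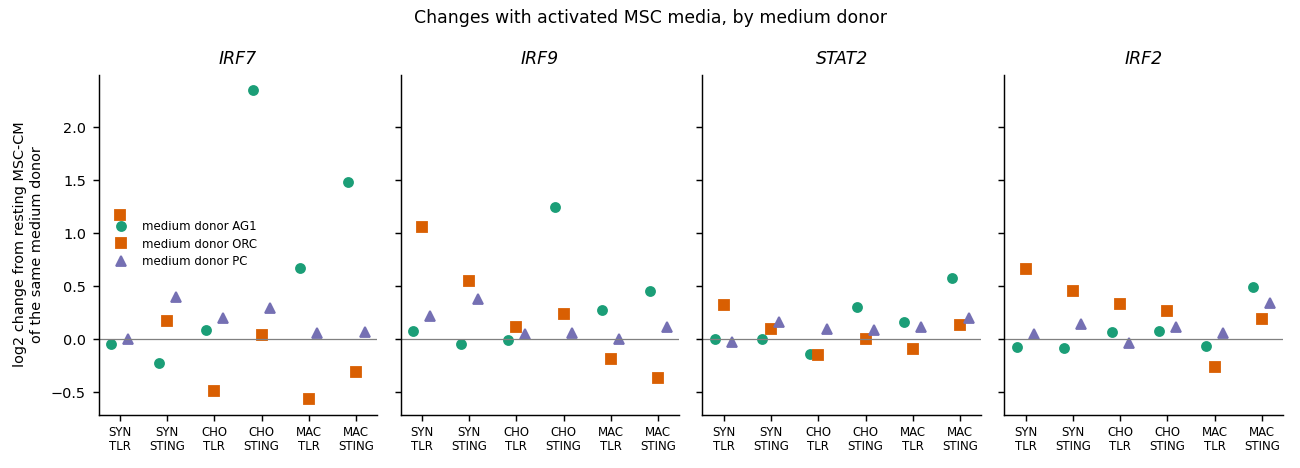
Change of IRF7, IRF9, STAT2 and IRF2 with TLR-MSC-CM or STING-MSC-CM, as log2 of the CPM ratio to resting MSC-CM of the same medium donor (vertical axis), in synoviocytes (SYN), chondrocytes (CHO) and macrophages (MAC), with 1 point per medium donor. The highest points of IRF7 are the AG1 medium with STING-MSC-CM in chondrocytes, 5.11-fold above the resting library, and in macrophages, 2.79-fold, followed by the ORC medium with TLR-MSC-CM in synoviocytes, 2.25-fold.

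In macrophages no member passed after adjustment between media in the edgeR fit without a donor block. With TLR-MSC-CM the log2 fold changes of the 9 members ran from −0.17 to 0.18, and none passed at an unadjusted p under 0.05, beside 2.13% of the 15052 genes tested. With STING-MSC-CM they ran from −0.22 to 0.31, and again none passed, beside 4.76%. With the medium donor as a replicate block, IRF2, STAT2 and STAT3 were higher with STING-MSC-CM at that threshold, each in 3 of 3 donors, beside 7.24% of all genes higher in that fit. Their log2 fold changes were then 0.33 ± 0.09, 0.29 ± 0.09 and 0.28 ± 0.09 (edgeR adjusted p = 0.120, 0.217 and 0.207). IRF2 had groups apart between the activated media, at 113, 140 and 144 CPM with TLR-MSC-CM of AG1, ORC and PC and at 167, 191 and 176 CPM with STING-MSC-CM, and was the 1 member higher at an unadjusted p under 0.05, beside 2.78% of all genes. Each STING library was above each TLR library, beside 4.74% of all genes higher in that way. The log2 fold change of IRF2 between the media was 0.46 ± 0.16 (edgeR adjusted p = 0.735, unadjusted p = 0.0141). With the medium donor as a replicate block it was 0.47 ± 0.09 and passed (edgeR adjusted p = 0.0268), as did 2.23% of all genes. In that fit STAT2 and STAT3 were also higher with STING-MSC-CM at an unadjusted p under 0.05, beside 8.84% of all genes, and SOCS1 was lower, beside 7.51% (edgeR adjusted p = 0.153 to 0.240). The log2 fold change of SOCS1 was −0.38 in the fit without the block, and −0.09 in that fit without the TLR library of AG1. Against resting MSC-CM, at 118, 167 and 139 CPM, the log2 fold change of IRF2 with STING-MSC-CM was 0.31 ± 0.16 (edgeR adjusted p = 0.907).

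IRF7 in macrophages varied with the medium donor. It was at 175, 279 and 489 CPM with resting MSC-CM, TLR-MSC-CM and STING-MSC-CM of AG1, at 635, 429 and 513 CPM with those of ORC and at 344, 359 and 360 CPM with those of PC. The changes with activated medium were thus upward with AG1, downward with ORC and near 0 with PC. IRF9 had the same order of donors with resting MSC-CM, at 89.8 CPM with AG1, 135 CPM with ORC and 93.2 CPM with PC, and so did STAT2, at 153, 248 and 211 CPM.

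The TLR-MSC-CM library of AG1 stood apart for IRF1, IRF8 and SOCS1. IRF1 was at 655 CPM in it and at 401 to 595 CPM in the other 10 macrophage libraries. IRF8 was at 445 CPM in it, against 236 to 359 CPM. SOCS1 was at 59.4 CPM in it, against 27.4 to 46.0 CPM. The 4 T cell markers also summed to the most there, 387 CPM against 210 to 257 CPM, while the 10 macrophage markers summed to 10911 CPM there and to 11248 to 13854 CPM in the other 10. The part of other cells in these 3 values was not tested.

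**Figure D5:**
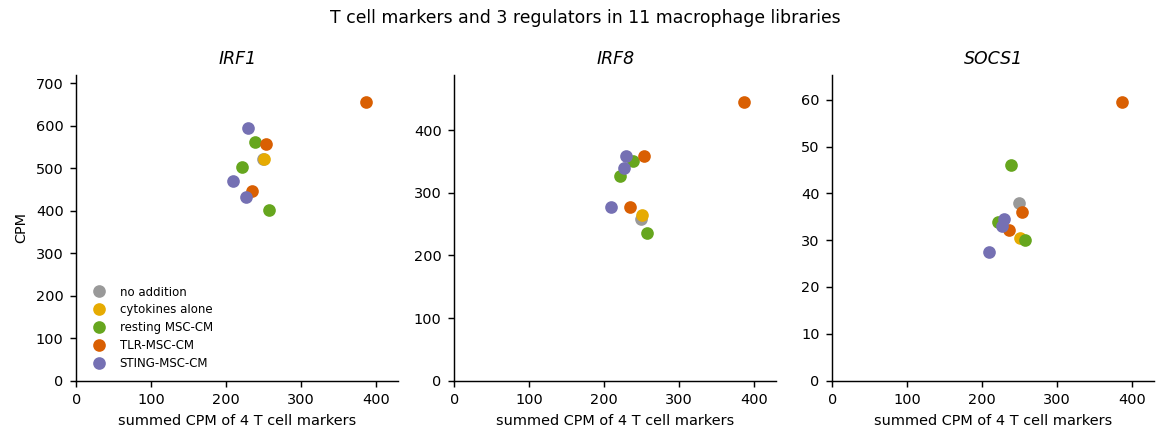
CPM of IRF1, IRF8 and SOCS1 (vertical axes) against the summed CPM of the 4 T cell markers CD3E, CD3D, CD2 and CD5 (horizontal axes) in the 11 macrophage libraries, colored by condition. The library at 387 CPM of T cell markers is TLR-MSC-CM of AG1, which is also the highest for all 3 genes; the other 10 lie between 210 and 257 CPM.

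Whether the change with a medium differed between cell types was tested by an interaction term for each of the 3 pairs of cell types. No member passed after adjustment for TLR-MSC-CM or STING-MSC-CM, nor did any gene in edgeR (0% of 16584). At an unadjusted p under 0.05, 1 member test passed, that of SOCS1 between chondrocytes and synoviocytes with TLR-MSC-CM (difference in log2 fold change 1.49 ± 0.58, edgeR adjusted p = 1.00, unadjusted p = 0.0169). The same threshold was passed with TLR-MSC-CM by 3.99%, 2.64% and 1.72% of all genes for macrophages against synoviocytes, macrophages against chondrocytes and chondrocytes against synoviocytes, and with STING-MSC-CM by 4.38%, 3.59% and 1.74%. SOCS1 was at 6 to 47 counts per library in the groups of that test. DESeq2 called no member either.

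The libraries without MSC medium give the levels before and after IL-1β and TNF-α, with 1 library each and no test. SOCS3 was at 25.1 CPM in synoviocytes with no addition and at 36.0 CPM with the cytokines, and at 30.7 and 49.6 CPM in chondrocytes. In both cell types the library with no addition was the lowest of the 11. STAT3 went the other way, from 209 to 147 CPM in synoviocytes and from 195 to 137 CPM in chondrocytes, and the library with no addition was the highest of the 11 in each. IRF1 was at 12.9 CPM with no addition and 8.53 CPM with the cytokines in synoviocytes, and at 19.3 and 12.1 CPM in chondrocytes. The level of IRF1 with no addition was equalled in synoviocytes by the TLR-MSC-CM library of ORC, at 12.9 CPM, and by no other chondrocyte library, where the next was at 12.4 CPM. IRF2 in chondrocytes was at 27.6 CPM with no addition and 51.1 CPM with the cytokines, a ratio of 1.85. The 10 chondrocyte libraries with cytokines ran from 22.9 to 51.1 CPM of IRF2. The library with no addition lay within their range, near the 3 given medium of ORC, at 22.9, 27.5 and 28.8 CPM. The cytokine marker CXCL8 also varied widely among the chondrocyte libraries with CM. It ran from 43.3 to 1757 CPM with resting MSC-CM and from 34.3 to 3376 CPM with TLR-MSC-CM. With STING-MSC-CM it ran from 181 to 1320 CPM, against 3.16 CPM with no addition. Whether this spread goes with the IRF2 levels was not tested. SOCS3 in chondrocytes, with a ratio of 1.62, and IRF2 were the 2 members past 1.5-fold upward there, beside 11.2% of the 12806 genes compared. IRF1 and SOCS1 were past 1.5-fold downward in both cell types, beside 8.19% of 13051 genes in synoviocytes and 15.6% in chondrocytes, and SOCS1 rested on 18 and 6 counts in synoviocytes and on 12 and 10 counts in chondrocytes.

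In macrophages the IRF and STAT members differed little between the library with the cytokines alone and that with no addition. The cytokine markers differed little or in both directions there. With no addition and with cytokines, CXCL8 was at 5134 and 3860 CPM, IL6 at 94.9 and 63.5, NFKBIA at 173 and 177, TNFAIP3 at 174 and 212 and MMP1 at 70.7 and 75.0. In chondrocytes CXCL8 was at 3.16 and 3307 CPM. Whether the macrophages responded to the cytokines was not tested. For the IRF and STAT members, the ratio of cytokines alone to no addition lay between 0.948 for IRF7 and 1.123 for STAT2. SOCS1 was at 37.9 CPM with no addition and at 30.4 CPM with the cytokines, and SOCS3 was at 90.5 and 66.3 CPM. SOCS3 in macrophages with the cytokines only was thus the lowest of the 11, and no member passed 1.5-fold in either direction, beside 5.47% of 12921 genes upward and 3.22% downward. IRF2 was at 198 CPM with no addition, above the 10 macrophage libraries with cytokines, which ran from 113 to 191 CPM.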

How the data were processed

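Reads had been trimmed (Cutadapt 1.12), mapped to EquCab3.0 (STAR) and assigned to genes (HTSeq 0.11.0) by the authors, who kept protein coding genes. The deposited values are these raw counts, not normalized, with the 41 values of 1000000 or more written to 3 significant digits. The counting strand is not given in the sources used here, so reads of overlapping antisense genes cannot be told apart.

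Groups came from the sample labels. A gene entered a fit where its counts summed to 10 or more across that fit's libraries, and was tested with edgeR 4.0.16 (TMM, quasi-likelihood test, no donor term) in R 4.3.3, on each cell type separately, with all 12 MSC libraries for CpG, and jointly for comparisons between cell types. Benjamini-Hochberg adjustment ran over all genes tested, with a threshold of 0.05. The tests were tried on simulated counts with known changes, with the same spread for every gene and no donor effects. Such counts cannot show the power or error of the tests in these data. DESeq2 1.42.0, other normalizations and filters, a donor block and leaving out each library were run as alternatives. A log2 fold change of a single member is printed where its unadjusted p was under 0.1 or its groups did not overlap, and otherwise only as a range. The deviations of libraries from their group means correlated between libraries of the same donor at 0.624 to 0.833 in MSC, 0.355 to 0.718 in chondrocytes, 0.138 to 0.301 in macrophages and −0.166 to 0.141 in synoviocytes, so the donor, which the labels give, pairs the libraries in the first 3. The joint cells are of 1 horse per type, so their p-values measure the spread between media and cultures. The members, the pathway and marker lists and the tests were chosen with earlier results of these data known. Of the targets and ligands written into the lists, only those in the tables used here were analysed.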

Additional observations from a re-analysis of the deposited data

How the results depend on the processing

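The counts of members called were recomputed under 8 kinds of setting, of which DESeq2 with the donor as a replicate block was chosen after seeing the data. With the MSC agonists, where edgeR called 0 members, DESeq2 called 2 for each agonist. DESeq2 with the replicate block called 1 for the TLR3 agonist and 3 for the STING agonist, and the study's thresholds (an unadjusted p up to 0.05 with a log2 fold change of 2 or beyond) took 2 for each. Leaving out a library gave 0 to 2 for the TLR3 agonist, the 2 without the TLR3 library of donor 92. In macrophages, IRF2 with STING-MSC-CM against TLR-MSC-CM was the 1 member called with the replicate block in edgeR and in DESeq2, and DESeq2 with the block also called 1 member, IRF2, against resting MSC-CM. For chondrocytes against synoviocytes, where 2 members were called, the study's thresholds took 1, and leaving out a library gave 0 to 2. The study's thresholds also took 1 member, IRF8, for STING-MSC-CM against TLR-MSC-CM in synoviocytes. The replicate block in edgeR changed no other count of members called after adjustment.

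Of 43 log2 fold changes followed one by one, 2 reversed, those of IRF7 in chondrocytes without the STING-MSC-CM library of AG1, to −0.0835 against resting MSC-CM and −0.0841 against TLR-MSC-CM. Over the libraries left out, the former ran up to 1.93 and so did the latter. Of the other 94, which lie near 0 and are printed only as ranges, 54 changed sign under at least 1 alternative, and none was called. CPM computed on TMM library sizes moved none of 117 group means by more than 1 SD. With a pseudocount of 0.1 CPM in place of 1, 5 of 17 sets of most similar genes kept fewer than 2 of their 3 genes, those of IRF1 in MSC and of IRF7, IRF8, IRF9 and SOCS1 in the joint cells. With 3 libraries per group, members at a few counts, IRF8 outside macrophages and SOCS1 in synoviocytes and chondrocytes, allow no firm statement.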

Other observations

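As a description of likeness, Pearson's r was computed between log2(CPM + 1) of each member and of all genes with a mean of at least 1 CPM, with no test, since the libraries share donors and, in the joint cells, the same cells. Over the 12 MSC libraries, the 3 genes most like IRF7 were BST2, a membrane tether of virus particles (r = 0.996), LGALS3BP (r = 0.995) and IFI6 (r = 0.992). Those most like IRF9 were IFI44 (r = 0.998), ISG15 (r = 0.994) and IFI6 (r = 0.994). Those most like STAT2 were ADAR, an RNA-editing enzyme (r = 0.986), the kinase gene JAK2 (r = 0.967) and IFIT5 (r = 0.966). The genes most like IRF1, STAT3, SOCS1 and SOCS3 in MSC were PYROXD2 (r = 0.985), FBXO31 (r = 0.969), ORAI1 (r = 0.961) and PHC2 (r = 0.937).

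Over the 33 joint cell libraries, with each cell type centered on its own mean, IRF7 was most like EPSTI1 (r = 0.901), IRF9 most like ISG15 (r = 0.913) and STAT2 most like EIF2AK2, a kinase activated by double-stranded RNA (r = 0.858). IRF1 was most like PSME2, an activator subunit of the proteasome (r = 0.821), and IRF8 most like EHF (r = 0.897), followed by the lymphocyte activation marker CD69 (r = 0.863). IRF8 was at or near 0 in the 22 synoviocyte and chondrocyte libraries, so its r rests on the 11 macrophage libraries, and none of its 3 most similar genes was kept with a pseudocount of 0.1 CPM. SOCS1 was most like SYTL3 (r = 0.763), SOCS3 most like VASN (r = 0.836), STAT3 most like MYCBP2 (r = 0.851) and IRF2 most like AGTRAP (r = 0.916).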
